A study of Mus musculus with 12 samples.

Results

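The response of visceral white fat to a high-fat diet was measured in mice that overexpress TGF-b1 in the heart. The comparison uses 6 of the 12 sequenced libraries, chosen by their titles: 3 from transgenic mice on high-fat diet against 3 from transgenic mice on control chow. All mice were FVB/N, an inbred albino strain. Transgenic mice carried alphaMHC tTA together with alphaMHC TGFb, so that both the tetracycline-controlled activator and the TGF-b1 transgene were driven by the promoter of cardiac alpha-myosin heavy chain, and the change in genotype is made in heart muscle, not in fat. The other 6 libraries came from wild-type mice on the same 2 diets, and these wild-type mice also carried alphaMHC tTA, without the TGFb transgene. Control chow gave 17% of its energy as fat (3.1 kcal/g) and the high-fat diet 60% (5.21 kcal/g). Feeding began at 8 to 10 weeks of age and lasted 2 or 6 weeks, and the labels do not give the duration of a library or the sex of a mouse. Nothing in the labels ties a library to its own mouse, and the p-values therefore rest on library-to-library spread that could be partly technical.

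Visceral white fat stores surplus energy as triglyceride, and on a fat-rich diet its adipocytes enlarge, secrete more leptin and are surrounded by a remodelled matrix and by more immune cells. Adipocytes take up fatty acids released from lipoproteins by lipoprotein lipase, and make fatty acids of their own from glucose when the diet is poor in fat. TGF-b1 is a secreted cytokine known for driving matrix production. Natriuretic peptides, hormones of the heart, act on fat through a signalling receptor and are removed there by a clearance receptor.

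The libraries held 20.1 to 21.3 M gene counts, and 16550 genes entered the test. The 8 defining adipocyte markers were abundant in all 6 transgenic libraries (summed level 19293 to 23892 CPM, counts scaled to 1000000 per library), among them Adipoq, the gene of adiponectin, at 3069.8 to 5453 CPM. No adipocyte marker passed the test, and their median log2 fold change was 0.05. The first principal component of the 6 libraries took 41.3% of the variance and separated the diets. The second took 22.1% and set control replicates 2 and 3 apart from each other and from the rest. Control replicate 2 held epithelial transcripts, with Krt5 at 142 CPM against at most 0.648 in the other 5 libraries. Control replicate 3 held transcripts of striated muscle, with Atp2a1 at 178 CPM against at most 4.14. Control replicates 1 and 2 held more of 4 lymphatic endothelial genes than the other 4 libraries, for example Mmrn1 at 20.3 and 14.1 CPM against at most 2.99. Each count below was therefore recomputed without a pair of epithelium-rich libraries (control replicate 2 and 1 wild-type control library), without a muscle-rich pair (control replicate 3 and 1 wild-type high-fat library) and without each of the 6 libraries in turn. Where a call was lost in one of these fits, the libraries are given after the gene, C1 to C3 for control replicates 1 to 3 and H1 to H3 for high-fat replicates 1 to 3.

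In transgenic fat the high-fat diet changed 1445 of 16550 genes (8.73%) by edgeR's quasi-likelihood test at an adjusted p below 0.05. Of these, 892 (5.39%) rose and 553 (3.34%) fell, and 402 of the rises and 244 of the falls were at least 2-fold. The shares over all genes are the comparison for each count of list members below. The median log2 fold change (high-fat minus control) was -0.02 over all genes, 0.93 over the genes that rose and -0.91 over those that fell. The 3 libraries of each diet did not overlap in 1430 of the called genes. Genes named below by size, p-value or level were drawn only from these, so their lack of overlap was set in advance. Over all genes tested, 14.4% had every high-fat library above every control library and 13.5% had every one below. The count of calls was 597 without control replicate 1, 915 without control replicate 2, 543 without high-fat replicate 3 and 881 without the epithelium-rich pair. In all, 413 genes (28.6% of the calls) were called in each of the 6 fits that left out 1 transgenic library. Because whole tissue was sequenced, fewer cells of a type and less RNA per cell cannot be told apart in any of these values.

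Most genes of a list for expanding fat rose. Of 7 measured members of that list 5 rose and none fell, with a median log2 fold change of 1.33 against -0.02 over all genes. The raised members were Sfrp5, Mest and Nkd1, given here, and Npr3 and Tph2, given below. The list was chosen with earlier results of these data known, and Lep is not on it. Lep, which encodes the satiety hormone leptin, stood at 849, 762 and 623 CPM in control replicates 1, 2 and 3 and at 1644, 1857 and 3475 CPM in high-fat replicates 1, 2 and 3 (log2 fold change 1.64, SE 0.27, adjusted p = 0.00516). The highest control library lay below the lowest high-fat library, and high-fat replicate 3 was well above the other 2. Sfrp5, a secreted Wnt antagonist of adipocytes, was at 81.2, 63.2 and 159 CPM on chow and at 509, 479.9 and 459.7 CPM on high-fat diet (2.25, SE 0.38, adjusted p = 0.00546), so that the high-fat libraries were close to each other and the control libraries were not. Mest, an imprinted gene known as a marker of fat expansion, rose from 158, 441 and 223 to 883, 1327 and 1850.0 CPM (2.31, SE 0.50, adjusted p = 0.0167). Nkd1, an intracellular Wnt antagonist, rose from 48.0, 34.1 and 43.3 to 73.5, 84.3 and 62.8 CPM (0.81, SE 0.14, adjusted p = 0.00649), with no overlap. Bmp3 (0.82, SE 0.25, adjusted p = 0.0627) and Nnat (0.33, SE 0.31, adjusted p = 0.542) did not pass. Mest (C1, H3 or the muscle-rich pair, adjusted p up to 0.0666) lost its call without the libraries named. The list had 4 or 5 members raised in the leave-one-out fits.

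**Figure D1:**
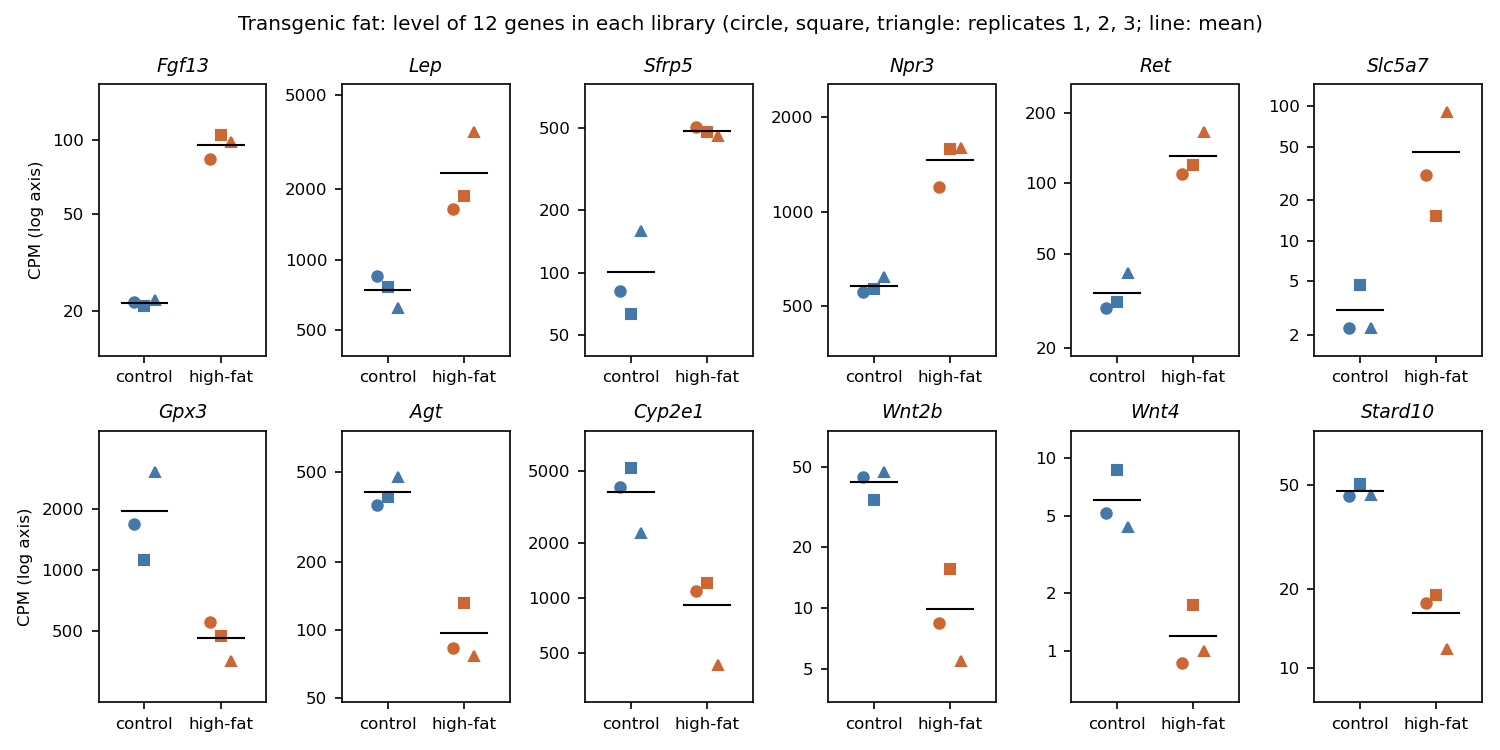
Level of 12 genes in CPM (log axis) in the 3 control and 3 high-fat transgenic libraries; circles, squares and triangles are replicates 1, 2 and 3, and lines are group means. Fgf13 lies between 21.1 and 22.2 CPM in the control libraries and between 83.6 and 105 CPM in the high-fat libraries, and no gene shown overlaps between the diets.

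Among hormones and other secreted or signalling products of fat, 3 of 15 measured genes rose and 2 fell, with a median of 0.28. The smallest p of the whole comparison was that of Fgf13 (chromosome X, 59062139 to 59585572, GRCm38), a fibroblast growth factor homologue that stays inside the cell and binds sodium channels and microtubules. Its level was 21.8, 21.1 and 22.2 CPM in the control libraries and 83.6, 105 and 98.0 CPM in the high-fat libraries (log2 fold change 2.14, SE 0.15, adjusted p = 0.000121), a spread within each diet far smaller than the step between them. Apln, the gene of the peptide hormone apelin, rose from 6.05, 4.45 and 6.46 to 11.4, 34.1 and 14.9 CPM (1.83, SE 0.37, adjusted p = 0.0128), most in high-fat replicate 2. Agt, which encodes the angiotensin precursor, fell from 355, 387 and 473 to 83.4, 132 and 76.7 CPM (-2.06, SE 0.25, adjusted p = 0.00151), with every high-fat library under the lowest control library. Cfd, the gene of the serine protease adipsin, fell from 12182, 6810.0 and 15698 to 5349, 4747 and 2558 CPM (-1.45, SE 0.41, adjusted p = 0.0449). Adiponectin (Adipoq, -0.31, SE 0.17, adjusted p = 0.272), resistin (Retn, -0.28, SE 0.21, adjusted p = 0.421) and retinol-binding protein 4 (Rbp4, 0.46, SE 0.23, adjusted p = 0.234) gave no call. Cfd (C1, C3, H1, H2, H3 or the muscle-rich pair, adjusted p up to 0.156) and Apln (the epithelium-rich pair, adjusted p up to 0.0511) lost their calls without the libraries named.

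Of 5 measured genes of natriuretic peptide signalling, 1 passed. Npr3, the clearance receptor that removes natriuretic peptides, lay at 554, 568 and 619 CPM on chow and at 1197, 1583 and 1589.6 CPM on high-fat diet (log2 fold change 1.33, SE 0.13, adjusted p = 0.000439). The control libraries were close to each other, and every high-fat library lay far above them. The signalling receptor gene Npr1 read 119, 121 and 139.7 CPM on chow and 101, 103 and 91.5 CPM on high-fat diet (-0.36, SE 0.14, adjusted p = 0.123) and did not pass.

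Lipid uptake and release genes moved in parts, beside 5.39% raised and 3.34% lowered over all genes tested. Of 12 uptake genes 3 rose and none fell, with a median of 0.14. Lpl, lipoprotein lipase, which frees fatty acids from circulating lipoproteins, rose from 7692, 9018 and 7754 to 11886, 13776 and 15730.4 CPM (0.76, SE 0.15, adjusted p = 0.0128). Gpihbp1, which anchors that enzyme to the capillary wall, rose from 87.2, 79.0 and 96.0 to 124, 149 and 121 CPM (0.59, SE 0.14, adjusted p = 0.0246), and Vldlr, a receptor of triglyceride-rich lipoproteins, from 101, 102 and 79.5 to 180.3, 149 and 165 CPM (0.80, SE 0.14, adjusted p = 0.00666). The 3 genes share no library overlap between the diets, and the fatty acid carrier genes Cd36 (0.02, SE 0.14, adjusted p = 0.961) and Fabp4 (-0.24, SE 0.19, adjusted p = 0.450) did not pass. In the lipolysis list, Mgll, which releases the last fatty acid from monoglyceride, rose (0.60, SE 0.14, adjusted p = 0.0212) and G0s2, an inhibitor of the first lipase, fell (-0.78, SE 0.20, adjusted p = 0.0360), while the other 13 of 15 gave no call. Aqp7, the channel through which glycerol leaves the adipocyte, rose from 55.6, 76.2 and 66.2 to 90.4, 112 and 102 CPM (0.62, SE 0.14, adjusted p = 0.0192), and Mogat1, an acyltransferase of triglyceride synthesis, fell (-0.91, SE 0.24, adjusted p = 0.0377). Lpl (C1 or H3, adjusted p up to 0.0643), Mgll (C1, H3 or the muscle-rich pair, adjusted p up to 0.0851) and Gpihbp1 (C1, C2, H2 or the epithelium-rich pair, adjusted p up to 0.0746) lost their calls without the libraries named. G0s2 (C1, C2, H2, H3 or the epithelium-rich pair, adjusted p up to 0.130), Aqp7 (C1, H2, H3 or the muscle-rich pair, adjusted p up to 0.0741) and Mogat1 (C1, C2, H1, H3 or the epithelium-rich pair, adjusted p up to 0.138) did not pass without these libraries.

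Caveolae, the membrane pockets that cover the adipocyte surface, had 4 of 8 members raised and 1 lowered (median 0.45). Cav1, the main structural protein, rose from 2556, 2566 and 2479 to 3248, 4065 and 3849.6 CPM (0.55, SE 0.13, adjusted p = 0.0209), and Cavin3, a coat protein, from 342, 221 and 287 to 424, 472 and 569 CPM (0.79, SE 0.19, adjusted p = 0.0254). Cavin1 (0.58) and Cavin2 (0.44) rose as well, and Pacsin3, a membrane-bending protein, fell (-0.75). Between 0 and 3 members were raised in the leave-one-out fits and none without the muscle-rich pair. Cav1 (C1, H2, H3, the epithelium-rich pair or the muscle-rich pair, adjusted p up to 0.0721), Cavin3 (C2, H3, the epithelium-rich pair or the muscle-rich pair, adjusted p up to 0.0983) and Cavin1 (each library in turn or the muscle-rich pair, adjusted p up to 0.117) lost their calls without the libraries named. Cavin2 (each library in turn, the epithelium-rich pair or the muscle-rich pair, adjusted p up to 0.106) and Pacsin3 (C1, H2, H3 or the muscle-rich pair, adjusted p up to 0.0975) did not pass without these libraries.

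Fatty acid synthesis had none of its 20 members raised and 3 lowered, with a median of -0.30. Fads1, a desaturase of polyunsaturated fatty acids, fell from 225, 157 and 144 to 77.3, 75.3 and 94.4 CPM (-1.09, SE 0.18, adjusted p = 0.00464). Fads2, the partner desaturase (-0.70, SE 0.19, adjusted p = 0.0395), and Aacs, which activates acetoacetate for lipid synthesis (-1.08, SE 0.26, adjusted p = 0.0256), fell too. The enzymes of the main path did not pass, as in Fasn, fatty acid synthase (-0.37, SE 0.55, adjusted p = 0.719), Acacb, an acetyl-CoA carboxylase (-1.18, SE 0.36, adjusted p = 0.0641), and Acly, ATP citrate lyase (-1.09, SE 0.79, adjusted p = 0.419). Fasn overlapped between the diets at 7836, 8893 and 8048 CPM on chow and 4487, 5407 and 9229.6 CPM on high-fat diet. The same list had a median of -1.19 in wild-type fat, with 3 members lowered. Fads2 (C1, C2, H1, H2, H3 or the epithelium-rich pair, adjusted p up to 0.130) and Aacs (C1, C2, H1, H3 or the epithelium-rich pair, adjusted p up to 0.0909) lost their calls without the libraries named.

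Each list for fuel use and insulin signalling had at most 2 calls, beside 8.73% of all genes tested. None of 16 fatty acid oxidation genes (median 0.11), 26 nuclear-encoded respiratory chain genes (median -0.20) and 11 lipid droplet protein genes (median 0.20) passed. Of 19 genes for the breakdown of branched-chain amino acids, Acadsb fell (-0.54, SE 0.13, adjusted p = 0.0261). Of 16 insulin signalling genes 2 fell and none rose, among them Pik3r1, the regulatory subunit of PI3-kinase (-0.83, SE 0.17, adjusted p = 0.0128). Of 13 thermogenic genes (median 0.47) 1 rose, S100b (2.32, SE 0.30, adjusted p = 0.00194), a protein that beige and brown adipocytes secrete. The marker Ucp1 did not pass (1.27, SE 1.67, adjusted p = 0.679). In the leave-one-out fits the thermogenic median ran from -0.28 to 0.88 and the fatty acid oxidation median from -0.12 to 0.22. Both were lowest without high-fat replicate 1. Acadsb (C1, H3 or the epithelium-rich pair, adjusted p up to 0.1001) and Pik3r1 (H3, adjusted p up to 0.0516) lost their calls without the libraries named.

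The growth hormone and STAT5 axis had none of 12 members raised and 3 lowered (median -0.69). Igf1, insulin-like growth factor 1, a target of growth hormone, fell from 550.4, 449 and 358 to 182, 249.6 and 196 CPM (-1.11, SE 0.19, adjusted p = 0.00525), without overlap. Prlr, the prolactin receptor (-0.93, SE 0.25, adjusted p = 0.0412), and Igfbp5, which binds insulin-like growth factors (-0.99, SE 0.26, adjusted p = 0.0381), fell, although Igfbp5 at 720.3 CPM in control replicate 2 lay below 817 CPM in high-fat replicate 2. Igfbp5 is counted also among the mesothelial markers below, which were lower on high-fat diet. Prlr (C1, C2, H1, H2 or H3, adjusted p up to 0.149) and Igfbp5 (C1, C3, H1, H3 or the muscle-rich pair, adjusted p up to 0.135) lost their calls without the libraries named.

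Ret, Slc5a7, Tph2, Olfm1 and S100b, each known from neurons or glia, rose. They were put side by side after their values were seen, with no test of them as a group. Ret, the receptor kinase for neurotrophic ligands of the GDNF family, was at 29.5, 31.1 and 41.4 CPM on chow and at 110.0, 119 and 165 CPM on high-fat diet (log2 fold change 1.95, SE 0.17, adjusted p = 0.000253). Slc5a7, the choline transporter of cholinergic neurons, rose from 2.23, 4.66 and 2.26 to 31.0, 15.2 and 90.6 CPM (3.91, SE 0.68, adjusted p = 0.00658). Tph2, the enzyme of serotonin synthesis in neurons, rose from 0.347, 1.15 and 0.136 to 10.2, 4.41 and 28.1 CPM (4.73, SE 0.84, adjusted p = 0.00697). The high-fat libraries kept 1 order in Slc5a7 and Tph2, with replicate 3 highest and replicate 2 lowest. Olfm1, a secreted glycoprotein of the brain, rose from 52.3, 57.2 and 53.5 to 172, 151 and 214 CPM (1.72, SE 0.14, adjusted p = 0.000225). S100b, a calcium-binding protein of glia that beige and brown adipocytes also secrete, rose from 4.07, 2.41 and 2.67 to 21.4, 11.9 and 12.3 CPM (2.32, SE 0.30, adjusted p = 0.00194). Of the 9 measured Schwann cell and nerve markers, S100b and Pmp22 (0.56, SE 0.15, adjusted p = 0.0412) rose and none fell, the median was -0.29, and the summed level was 230 to 285 CPM in the control libraries and 327 to 352 CPM in the high-fat libraries. The defining Schwann cell gene Sox10 was at most 1.24 CPM in any library and was not raised. All 5 genes with values here other than Pmp22 (Ret, Slc5a7, Tph2, Olfm1 and S100b) passed in every leave-one-out fit and without either pair of tissue-rich libraries. Pmp22 (C2, C3, H1, H2, H3, the epithelium-rich pair or the muscle-rich pair, adjusted p up to 0.117) lost its call without the libraries named.

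Other genes with the largest rises had low levels on chow. Gas2l2, a linker of actin and microtubules, rose from 0.0496, 0.314 and 0.181 to 2.64, 2.11 and 5.43 CPM (4.19, SE 0.50, adjusted p = 0.00151). Dusp15, a dual-specificity phosphatase, rose from 0.397, 0.419 and 0.497 to 6.47, 3.21 and 4.54 CPM (3.42, SE 0.45, adjusted p = 0.00194), and Cdkl4, a kinase of the cyclin-dependent kinase-like family, from 1.79, 3.25 and 6.73 to 36.5, 21.2 and 55.8 CPM (3.26, SE 0.46, adjusted p = 0.00263). These libraries did not overlap in any of the 3 genes, as the rule for naming them required. Mageb18, a MAGE family gene (2.96), Mgam, an enzyme of starch digestion (2.81), Anks1b, a scaffold protein (3.90), and F7, coagulation factor VII (3.15), rose at under 10 CPM in every library. Art2a, an ADP-ribosyltransferase with a near-identical neighbour gene that makes its count uncertain, had 1 count in the 3 control libraries together and 196 in the 3 high-fat libraries, a ratio of 195 (95% interval 34.6 to 7737 from counting error alone). Tm4sf19, a membrane protein of multinucleate macrophages and osteoclasts, had 3 and 67 counts, a ratio of 22.2 (7.28 to 110). Tm4sf19 (each library in turn, the epithelium-rich pair or the muscle-rich pair, adjusted p up to 0.138), Anks1b (C1, C2, C3, H3, the epithelium-rich pair or the muscle-rich pair, adjusted p up to 0.155) and F7 (C1, C2, C3, H1, H3, the epithelium-rich pair or the muscle-rich pair, adjusted p up to 0.129) lost their calls without the libraries named.

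The genes with the smallest p included several at moderate level. Fmr1, an RNA-binding protein that controls translation, rose from 197, 259 and 265 to 666, 539.7 and 611 CPM (1.33, SE 0.14, adjusted p = 0.000692). Tspan17, a tetraspanin, rose (1.02, SE 0.11, adjusted p = 0.000723), and so did Tifab, an inhibitor of the adaptor TIFA (1.59, SE 0.17, adjusted p = 0.000795). In all 3 the control libraries lay below every high-fat library, as the rule for naming them required. The calls of Fmr1, Tspan17 and Tifab held in each leave-one-out fit.

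Many collagen chain genes rose. Of 19 collagen chain genes 10 rose and 1 fell, with a median of 0.69. Col6a2 (chromosome 10, 76595756 to 76623630, GRCm38) and Col6a1, chains of the microfibrillar collagen VI that wraps adipocytes, rose more than 2-fold. Col6a2 was at 329, 460.0 and 491 CPM on chow and at 1303, 1394 and 1954 CPM on high-fat diet (log2 fold change 1.86, SE 0.21, adjusted p = 0.00125). Col6a1 was at 350.0, 469 and 552 CPM and at 1052, 1108 and 1464 CPM (1.40, SE 0.21, adjusted p = 0.00285), while the partner chain Col6a3 did not pass (0.59, SE 0.30, adjusted p = 0.241). Col5a3, a fibrillar collagen V chain (1.76, SE 0.27, adjusted p = 0.00375), Col15a1, a collagen of the basement membrane zone (1.25, SE 0.18, adjusted p = 0.00285), and Col12a1, a fibril-associated collagen (1.62, SE 0.32, adjusted p = 0.0114), also rose more than 2-fold. The fibrillar chain Col1a1 rose from 428, 565 and 448 to 833, 777 and 753 CPM (0.71, SE 0.15, adjusted p = 0.0159), and Col3a1 did not pass (0.51, SE 0.24, adjusted p = 0.201). Col4a5, a chain of a minor basement membrane network, was the 1 that fell (-0.80). The list had 7 to 10 members raised in the leave-one-out fits. Col12a1 (C1, adjusted p up to 0.0511), Col1a1 (C1, adjusted p up to 0.0666) and Col4a5 (C1, C2, H1, H3 or the epithelium-rich pair, adjusted p up to 0.113) lost their calls without the libraries named.

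Of 20 matrix glycoprotein and proteoglycan genes 5 rose and 2 fell (median 0.45), beside 5.39% raised and 3.34% lowered over all genes tested. Sparc, a collagen-binding glycoprotein abundant in fat, rose from 1795, 2905 and 2121 to 4421, 5118 and 6316 CPM (1.22, SE 0.20, adjusted p = 0.00464). The basement membrane genes Nid2 (0.78, SE 0.14, adjusted p = 0.00675), Hspg2, which encodes perlecan (1.15, SE 0.24, adjusted p = 0.0133), and Nid1 (0.74, SE 0.18, adjusted p = 0.0292) rose. Dcn, the small proteoglycan decorin (-0.76, SE 0.18, adjusted p = 0.0213), and Thbs2, thrombospondin 2 (-1.38, SE 0.30, adjusted p = 0.0184), fell. Prelp, a small leucine-rich proteoglycan outside the list, rose from 965, 1431 and 1826 to 2274, 3581 and 3765 CPM (1.19, SE 0.25, adjusted p = 0.0152), as did the filament protein gene Vim (0.67). Among 17 proteases and inhibitors, Adamts5, which cuts proteoglycans, rose from 153, 184 and 127 to 292, 428 and 498 CPM (1.39, SE 0.25, adjusted p = 0.00697), and Mmp9, a gelatinase, fell from 16.3, 18.1 and 16.9 to 5.08, 9.93 and 4.14 CPM (-1.42, SE 0.27, adjusted p = 0.0107). Of 14 genes that process or crosslink collagen 3 rose, Serpinh1, the collagen chaperone, by 0.61, Bmp1, which trims procollagen, by 0.45 and Plod1, a lysyl hydroxylase, by 0.41 on the log2 scale. Hspg2 (C1 or H3, adjusted p up to 0.0525), Prelp (C1 or H3, adjusted p up to 0.0616) and Nid1 (C1, C2, H2, H3 or the muscle-rich pair, adjusted p up to 0.114) lost their calls without the libraries named. Dcn (C1, H1 or H3, adjusted p up to 0.0880), Thbs2 (C1, H1, H3 or the muscle-rich pair, adjusted p up to 0.0780) and Vim (C1, C2, H3 or the epithelium-rich pair, adjusted p up to 0.0731) did not pass without these libraries. Serpinh1 (C2, H3, the epithelium-rich pair or the muscle-rich pair, adjusted p up to 0.0864), Bmp1 (C1, C2, H1, H2, H3, the epithelium-rich pair or the muscle-rich pair, adjusted p up to 0.0993) and Plod1 (C1, C2, H2, H3, the epithelium-rich pair or the muscle-rich pair, adjusted p up to 0.146) were not called once these were left out.

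Of the genes of the TGF-beta pathway, 2 of 11 for ligands and their activation, 1 of 12 receptors and Smads and 1 of 15 targets were called, beside 8.73% of all genes tested. Tgfb1 (chromosome 7, 25687002 to 25705077, GRCm38), the ligand that the transgene overproduces in the heart, was at 51.3, 56.5 and 61.9 CPM in control fat and at 75.7, 74.96 and 82.3 CPM in high-fat fat (log2 fold change 0.46, SE 0.09, adjusted p = 0.0106). The groups did not overlap, and since the transgene is driven in the heart, this level in fat does not check the genotype. Tgfb2, a second ligand, fell from 7.14, 6.54 and 7.86 to 4.56, 4.60 and 3.94 CPM (-0.72, SE 0.19, adjusted p = 0.0377), and the other 9 of 11 ligand and activation genes did not pass. Of 12 receptors and Smads only Tgfbr3, the co-receptor betaglycan, fell (-0.47, SE 0.10, adjusted p = 0.0192), while the signalling receptors Tgfbr1 (-0.23) and Tgfbr2 (-0.16) did not pass. Of 15 TGF-beta target genes only Col1a1 rose, and the list's median was 0.04. The direct targets Ccn2 (0.69, SE 0.47, adjusted p = 0.388) and Smad7 (-0.07, SE 0.23, adjusted p = 0.881) gave no call. Tgfb2 (each library in turn, the epithelium-rich pair or the muscle-rich pair, adjusted p up to 0.129) and Tgfbr3 (H1, H3, the epithelium-rich pair or the muscle-rich pair, adjusted p up to 0.0652) lost their calls without the libraries named.

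The related BMP branch and the Wnt pathway both gave calls. Of 18 activin, GDF and BMP genes 4 fell and none rose (median -0.06). Bmp2, a bone morphogenetic protein, fell from 14.6, 16.0 and 16.6 to 5.90, 9.21 and 7.98 CPM (-1.03, SE 0.16, adjusted p = 0.00347). The BMP antagonist Chrdl1 (-1.34, SE 0.35, adjusted p = 0.0372) and the activin antagonist Fst (-1.16, SE 0.32, adjusted p = 0.0447) also fell. Of 19 Wnt ligands and antagonists 2 rose (Sfrp5 and Nkd1, above) and 4 fell. Wnt2b, a canonical ligand, fell from 44.3, 34.3 and 46.9 to 8.44, 15.6 and 5.43 CPM (-2.09, SE 0.31, adjusted p = 0.00285), and Wnt4 from 5.16, 8.58 and 4.38 to 0.863, 1.73 and 0.997 CPM (-2.33, SE 0.36, adjusted p = 0.00347). Axin2, a target and inhibitor of Wnt signalling, fell from 30.9, 42.9 and 42.3 to 24.5, 21.5 and 20.7 CPM (-0.80, SE 0.19, adjusted p = 0.0270), and Dkk3, a Dickkopf family member, fell as well (-1.42). No library of one diet reached the range of the other in Bmp2, Wnt2b, Wnt4 or Axin2. Mesothelial markers were also lower on high-fat diet, with a summed level of 1630 to 2422 CPM on chow and 698 to 1246 CPM on high-fat diet, and their part in these falls was not tested. Chrdl1 (C1, C3, H1, H3 or the muscle-rich pair, adjusted p up to 0.110), Fst (C1, C2, H1, H2, H3 or the epithelium-rich pair, adjusted p up to 0.151) and Axin2 (C2, C3, H1, H2, H3, the epithelium-rich pair or the muscle-rich pair, adjusted p up to 0.0975) lost their calls without the libraries named. Dkk3 (C1, H1 or H3, adjusted p up to 0.0663) lost its call without the libraries named.

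Several chemokine genes rose. Of 16 measured CC chemokine and receptor genes 7 rose and none fell (median 1.10), and of 11 CXC and CX3C genes 5 rose and none fell (median 1.14). The monocyte attractant Ccl2 was at 2.88, 1.10 and 2.03 CPM on chow and at 13.5, 11.6 and 18.5 CPM on high-fat diet (log2 fold change 2.85, SE 0.31, adjusted p = 0.000836), and its neighbour Ccl7 at 1.74, 1.94 and 1.45 and 9.496, 7.53 and 8.33 CPM (2.31, SE 0.21, adjusted p = 0.000398). Ccr2, their receptor on monocytes, rose from 10.9, 10.52 and 9.53 to 47.6, 25.1 and 32.6 CPM (1.77, SE 0.23, adjusted p = 0.00191). The lowest high-fat library exceeded the highest control library by more than 2-fold in each of these 3 genes. Ccl22, made by dendritic cells (2.13, SE 0.41, adjusted p = 0.0107), the eosinophil attractant Ccl11 (0.51, SE 0.11, adjusted p = 0.0147), the neutrophil attractant Cxcl1 (1.85, SE 0.38, adjusted p = 0.0138) and the interferon-induced Cxcl9 (1.40, SE 0.30, adjusted p = 0.0158) rose too, and Cxcl9 was highest in high-fat replicate 2 at 52.1 CPM. The cytokine gene Tnf did not pass (1.93, SE 0.74, adjusted p = 0.125). Between 4 and 7 CC genes and between 1 and 5 CXC and CX3C genes were raised in the leave-one-out fits, and 4 and 1 without the epithelium-rich pair. Ccl11 (C1 or the epithelium-rich pair, adjusted p up to 0.0597), Cxcl9 (C1 or the epithelium-rich pair, adjusted p up to 0.0560) and Cxcl1 (C1, adjusted p up to 0.0597) lost their calls without the libraries named.

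Most measured genes of antigen presentation by MHC class II rose. Class II molecules show peptides from engulfed protein to helper T cells, Cd74 escorts them, the H2-DM proteins load them and Ciita switches their genes on. Of 11 measured genes 7 rose and none fell, with a median of 1.57. Ciita, the master regulator, was at 2.73, 3.04 and 4.29 CPM on chow and at 8.82, 12.9 and 15.3 CPM on high-fat diet (log2 fold change 1.88, SE 0.24, adjusted p = 0.00191). Cd74 was at 111, 132 and 181 CPM and at 463, 498 and 614 CPM (1.89, SE 0.18, adjusted p = 0.000398). H2-DMa (chromosome 17, 34119693 to 34139101, GRCm38) rose from 8.93, 7.49 and 10.3 to 23.2, 27.1 and 28.9 CPM (1.57, SE 0.13, adjusted p = 0.000225) and the surface chain H2-Ab1 from 46.5, 44.5 and 72.7 to 144, 155 and 205 CPM (1.62, SE 0.20, adjusted p = 0.00176). H2-Aa (1.33, SE 0.29, adjusted p = 0.0173), H2-DMb2 (1.71, SE 0.26, adjusted p = 0.00309) and H2-Oa (3.03, SE 0.58, adjusted p = 0.0101) rose as well, and in all 7 genes the diets did not overlap. H2-Eb1 did not pass (-1.54, SE 0.85, adjusted p = 0.277), and control replicate 3 held 30.3 CPM of it against 1.39 to 4.29 CPM in the other 5 libraries. Without control replicate 3 H2-Eb1 rose (1.37, adjusted p = 0.00826). H2 genes have close paralogs, so their counts are less certain. The 11 dendritic cell markers summed to 79.3 to 100 CPM on chow and to 125 to 183 CPM on high-fat diet, and their part in these rises was not tested. The number raised was 6 to 9 in the leave-one-out fits. H2-Aa (C1, H3 or the epithelium-rich pair, adjusted p up to 0.0710) lost its call without the libraries named.

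Stretches upstream of 4 raised class II genes are shown because these genes moved together and each holds the letters of an inverted CCAAT box, known from class II promoters (ATTGG, in capitals). They were read 5′ to 3′ on the gene's strand from RefSeq promoters of GRCm38.p6, searched over the 250 bases before the start site. For H2-DMa the second of 2 entries is shown, because the first holds no match in that window.
H2-Aa, chr17:34287847-34287921, minus strand: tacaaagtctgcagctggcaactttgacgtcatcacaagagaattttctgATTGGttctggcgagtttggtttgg
H2-DMa, chr17:34125270-34125344, plus strand: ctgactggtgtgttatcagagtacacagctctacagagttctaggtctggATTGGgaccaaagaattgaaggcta
H2-DMb2, chr17:34145109-34145183, plus strand: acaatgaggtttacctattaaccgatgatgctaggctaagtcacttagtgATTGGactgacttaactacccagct
H2-Oa, chr17:34092286-34092360, plus strand: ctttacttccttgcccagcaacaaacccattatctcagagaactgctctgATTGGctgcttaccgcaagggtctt
The motif, searched on both strands, was present in 7 of the 8 class II list members with a promoter in that table, and in 33.8% of all 32851 promoters of the same length. A list member was counted if any of its entries held the motif, whereas the share over all promoters is per entry. The shares are therefore not like for like. In the stretches shown it begins 48, 198, 90 and 43 bases before the start site. A match describes these letters only and is not a measured site.

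Genes of phagocytes and of dendritic cells rose in part, beside 5.39% raised and 3.34% lowered over all genes tested. Of 6 subunits of the phagocyte NADPH oxidase, which makes superoxide, 5 rose (median 0.95). The catalytic subunit Cybb was at 16.9, 17.7 and 20.9 CPM on chow and at 40.0, 33.1 and 35.5 CPM on high-fat diet (0.97, SE 0.12, adjusted p = 0.00176), and the cytosolic subunits Rac2 (1.01, SE 0.15, adjusted p = 0.00347), Ncf1 (0.77, SE 0.16, adjusted p = 0.0146) and Ncf4 (0.93, SE 0.23, adjusted p = 0.0265) followed. Of 15 general macrophage markers 2 rose, Mpeg1, a pore-forming protein, from 24.4, 27.2 and 29.8 to 87.1, 52.0 and 83.2 CPM (1.45, SE 0.25, adjusted p = 0.00678) and Cd68 (1.06, SE 0.26, adjusted p = 0.0281), and Adgre1, the F4/80 antigen, did not pass (0.77, SE 0.23, adjusted p = 0.0571). The summed level of these 15 markers was 789 to 836 CPM in the control libraries and 917 to 1302 CPM in the high-fat libraries. Of 15 genes of lipid-associated macrophages 4 rose and 1 fell, and the raised genes include Lpl, given above with lipid uptake. Itgax, the integrin chain CD11c, rose from 1.14, 1.26 and 1.85 to 9.74, 6.38 and 9.02 CPM (2.55, SE 0.36, adjusted p = 0.00284), and Trem2, a lipid receptor that defines those macrophages, fell from 41.6, 37.7 and 63.1 to 19.1, 13.9 and 12.7 CPM (-1.64, SE 0.34, adjusted p = 0.0146). In the same list the elastase Mmp12 (2.92, SE 0.82, adjusted p = 0.0468) and the lectin Lgals3 (1.48, SE 0.40, adjusted p = 0.0401) rose. Of 11 dendritic cell genes 4 rose and none fell, among them Flt3, the receptor of a dendritic cell growth factor (1.83, SE 0.36, adjusted p = 0.0108), and Fscn1, an actin bundler (0.94, SE 0.17, adjusted p = 0.00833). Itgax is on the dendritic cell list as well and is counted in both lists. Ncf4 (C1, C2, H1, H2 or the epithelium-rich pair, adjusted p up to 0.0915), Cd68 (C1, C2, H1, H3 or the epithelium-rich pair, adjusted p up to 0.0971) and Trem2 (H3, adjusted p up to 0.0659) lost their calls without the libraries named. Mmp12 (each library in turn or the epithelium-rich pair, adjusted p up to 0.152) and Lgals3 (C1, C2, C3, H1, H3 or the epithelium-rich pair, adjusted p up to 0.138) did not pass without these libraries.

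Marker genes of lymphocytes and granulocytes gave 2 calls. None of 7 B cell genes (median 1.14, all 7 with a positive log2 fold change), 3 neutrophil genes (median 0.52) or 7 mast cell and eosinophil genes (median -1.02, 2 positive) passed. Of 5 plasma cell genes (median 0.30) 1 fell, Xbp1 (-0.70), which is counted also among the genes of the unfolded protein response below. Of 13 T and NK cell genes (median 0.95, 12 positive) 1 rose, the T cell receptor chain Cd3d (2.19, SE 0.59, adjusted p = 0.0401). Beside these counts, 8.73% of all genes tested were called. Cd3d overlapped between the diets at 0.198, 0.105 and 0.0904 CPM on chow and 0.192, 0.959 and 0.698 CPM on high-fat diet. Cd3d (C1, C2, C3, H2, H3, the epithelium-rich pair or the muscle-rich pair, adjusted p up to 0.125) lost its call without the libraries named. Of 20 interferon-stimulated genes none rose and Oasl2 fell (-0.81), and of 11 MHC class I genes 2 rose, the regulator Nlrc5 (0.68) and Tapbp (0.36). Oasl2 (C1, C2, H1, H3, the epithelium-rich pair or the muscle-rich pair, adjusted p up to 0.152), Nlrc5 (C1, H2 or H3, adjusted p up to 0.0765) and Tapbp (C1, C2, H2, H3, the epithelium-rich pair or the muscle-rich pair, adjusted p up to 0.169) lost their calls without the libraries named.

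Acute-phase and complement genes moved both ways. Of 8 acute-phase genes 2 rose and 1 fell. Saa3, a serum amyloid A protein made in inflamed fat, rose from 2.88, 3.66 and 2.21 to 51.5, 12.1 and 29.5 CPM (3.41, SE 0.55, adjusted p = 0.00435), and Lbp, the lipopolysaccharide-binding protein, from 35.0, 46.1 and 58.4 to 136, 117 and 238 CPM (1.82, SE 0.24, adjusted p = 0.00197). Cp, the copper carrier ceruloplasmin, fell from 204, 224 and 121 to 54.1, 88.8 and 41.2 CPM (-1.57, SE 0.29, adjusted p = 0.00835). Ubd, an inflammation-induced ubiquitin-like modifier, rose from 3.27, 2.57 and 4.25 to 37.4, 20.2 and 58.4 CPM (3.51, SE 0.53, adjusted p = 0.00320), and no library overlapped in any of these 4 genes. Of 15 complement genes 3 rose and 3 fell. Cfb, factor B of the alternative pathway, rose from 144, 151 and 184 to 437, 296 and 374 CPM (1.21, SE 0.16, adjusted p = 0.00191), Cfp, properdin, rose (0.71, SE 0.16, adjusted p = 0.0185), and C3, the central component, fell from 3447, 2812 and 3364 to 2404, 2003 and 1404 CPM (-0.73, SE 0.18, adjusted p = 0.0294). Cfb shares 79.5% of its exon bases with an overlapping predicted gene on its strand, so its count may be incomplete. Cfp (C1, H1 or the epithelium-rich pair, adjusted p up to 0.0721) and C3 (C1, C3, H2, H3 or the muscle-rich pair, adjusted p up to 0.0974) lost their calls without the libraries named.

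Many genes of cell division rose. Of 24 mitosis genes 15 rose and none fell, with all 24 log2 fold changes above 0 and a median of 1.56. Of 24 DNA replication genes 12 rose and none fell (median 0.67). Mki67, the proliferation marker, was at 4.71, 5.13 and 2.85 CPM on chow and at 15.3, 20.1 and 13.7 CPM on high-fat diet (log2 fold change 1.96, SE 0.28, adjusted p = 0.00275), and Top2a, which untangles replicated DNA, at 3.08, 4.14 and 1.90 and 15.2, 13.6 and 8.48 CPM (2.03, SE 0.36, adjusted p = 0.00666). Foxm1, a transcription factor of mitotic genes, rose from 1.89, 2.57 and 1.85 to 4.75, 6.76 and 6.73 CPM (1.53, SE 0.25, adjusted p = 0.00452). Control and high-fat libraries did not overlap in these 3 genes, and high-fat replicate 3 was the lowest of its diet in Mki67 and Top2a. In replication, Mcm6, a subunit of the replicative helicase (1.54, SE 0.28, adjusted p = 0.00777), Rrm2, which supplies deoxynucleotides (1.80, SE 0.29, adjusted p = 0.00468), and Pclaf, a partner of the sliding clamp (2.00, SE 0.34, adjusted p = 0.00535), rose. The clamp itself, Pcna, did not pass (-0.02, SE 0.11, adjusted p = 0.937). Between 7 and 15 mitosis genes and between 6 and 11 replication genes were raised in the leave-one-out fits. Without the muscle-rich pair 6 mitosis genes and 9 replication genes were raised. Ccnb2 (2.10, SE 0.51, adjusted p = 0.0273) and Prc1 (1.78, SE 0.44, adjusted p = 0.0285) are among those lost. Ccnb2 (C1, C3, H1, H2 or the muscle-rich pair, adjusted p up to 0.0999) and Prc1 (C1, C3, H1, H2 or the muscle-rich pair, adjusted p up to 0.0906) lost their calls without the libraries named.

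Many mitotic genes carry a cell cycle genes homology region (TTTGAA) together with CCAAT boxes upstream of the start site. Both motifs are in capitals in 3 raised genes, shown because the list moved together. The stretches were read 5′ to 3′ on the gene's strand from the same RefSeq table.
Mki67, chr7:135716462-135716557, minus strand: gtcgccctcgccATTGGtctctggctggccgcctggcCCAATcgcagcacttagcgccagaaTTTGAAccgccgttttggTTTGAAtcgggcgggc
Top2a, chr11:99024197-99024292, minus strand: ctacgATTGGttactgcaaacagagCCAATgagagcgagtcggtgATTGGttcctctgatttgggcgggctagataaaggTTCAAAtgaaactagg
Cdc20, chr4:118437346-118437441, minus strand: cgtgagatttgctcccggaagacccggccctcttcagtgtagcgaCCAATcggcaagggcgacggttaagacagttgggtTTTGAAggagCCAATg
Searched on both strands over 250 bases, TTTGAA was in the promoters of 8 of 19 mitosis genes with an entry and in 16% of all promoters. ATTGG was in 17 of the 19, against 33.8% of all promoters, and the motifs do not overlap each other. Here too list members were counted by any entry and all promoters per entry. These matches describe letters in the window only.

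**Figure D2:**
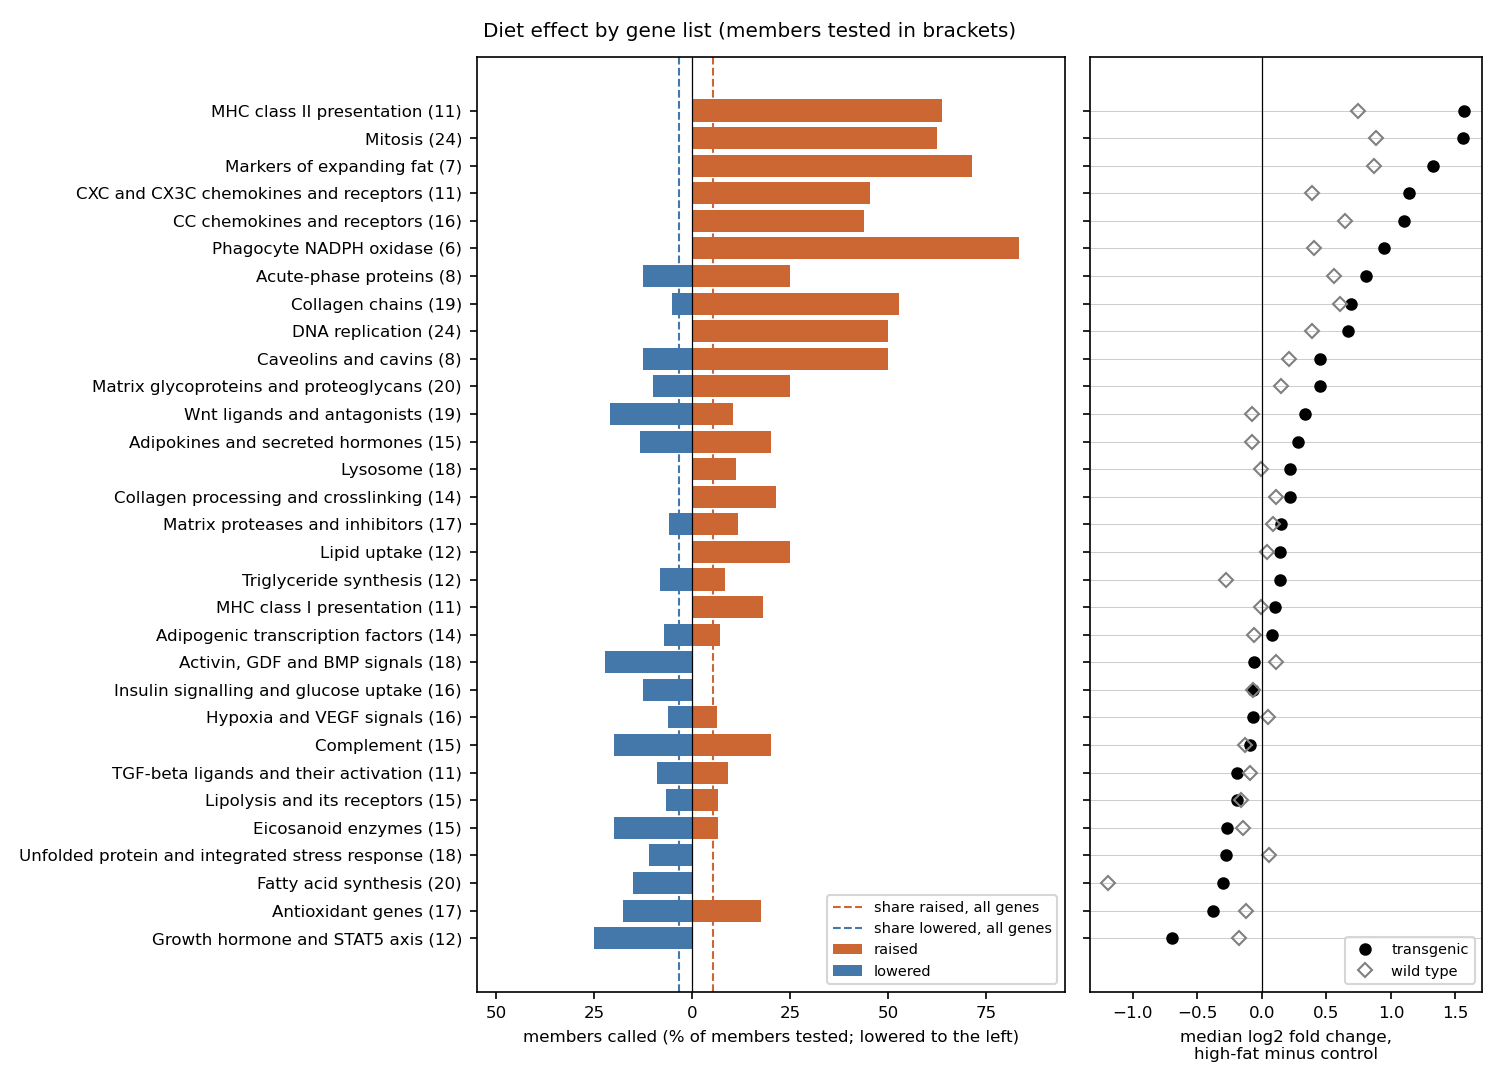
Left, the share of tested members raised (right of 0) or lowered (left of 0) by high-fat diet in transgenic fat for each gene list with at least 2 calls; dashed lines are the shares over all genes, 5.39% raised and 3.34% lowered. Right, the median log2 fold change of the same lists in transgenic (filled) and wild-type fat (open); 5 of 6 NADPH oxidase subunits and 15 of 24 mitosis genes are raised, and the growth hormone and STAT5 list has the lowest transgenic median, -0.69.

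Genes that fell included abundant enzymes and carriers of fat. Cyp2e1 (chromosome 7, 140763819 to 140774990, GRCm38), a cytochrome P450 that oxidises ethanol and ketones, was at 4091, 5209 and 2273 CPM on chow and at 1090.1, 1218 and 426 CPM on high-fat diet (log2 fold change -2.08, SE 0.37, adjusted p = 0.00736). Gpx3, the secreted glutathione peroxidase, fell from 1687, 1111 and 3026 to 552, 472 and 353 CPM (-2.08, SE 0.32, adjusted p = 0.00347). Trf, the iron carrier transferrin, fell from 1889, 1918 and 2391 to 866, 955 and 729 CPM (-1.28, SE 0.18, adjusted p = 0.00281). The diets did not overlap in these genes, which was a condition for naming them. Cyp2e1 and Trf are also on the liver list, whose other measured genes did not pass, and Alb, albumin, was at 23.9 to 58.3 CPM over the 6 libraries. Gas6, a ligand of receptors that clear dying cells, fell from 462, 302 and 678 to 204, 214 and 155 CPM (-1.33, SE 0.25, adjusted p = 0.00875), and Adipor2, an adiponectin receptor, fell (-0.53, SE 0.12, adjusted p = 0.0246). Trf shares 63.5% of its exon bases with a predicted gene on its strand, so its count may be incomplete. Adipor2 (C1, C2, H1, H2, H3 or the epithelium-rich pair, adjusted p up to 0.0924) lost its call without the libraries named.

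The 10 falls with the smallest p ran from -2.06 for Agt to -0.72 for Rbms2 on the log2 scale. Stard10, a lipid transfer protein, was at 45.5, 50.5 and 46.1 CPM on chow and at 17.7, 19.0 and 11.8 CPM on high-fat diet (log2 fold change -1.55, SE 0.16, adjusted p = 0.000723). Adgrg2, an adhesion receptor, fell from 55.2, 52.6 and 45.9 to 13.9, 23.0 and 15.3 CPM (-1.56, SE 0.18, adjusted p = 0.00146), and Nt5e, the ectoenzyme CD73 that makes adenosine, from 8.04, 8.32 and 4.47 to 1.87, 2.11 and 1.99 CPM (-1.80, SE 0.25, adjusted p = 0.00254). The diets were apart in all 3, which was a condition for naming them. The lipoprotein receptor Lsr (-1.28), the small GTPase Rhou (-1.33), the adhesion protein Amigo2 (-1.10), the homeobox factor Meis2 (-0.92), the RNA-binding protein Rbms2 (-0.72) and the oxysterol-binding protein Osbpl1a (-0.82) also fell. Pgr, the progesterone receptor, fell from 14.9, 3.51 and 7.73 to 0.480, 1.73 and 1.05 CPM (-3.001, SE 0.52, adjusted p = 0.00648), the 1 call among 8 genes of the female reproductive tract. Shisal1 (-3.28, SE 0.55, adjusted p = 0.00523) and the transcription factor Sp5 (-3.14, SE 0.62, adjusted p = 0.0115) fell by more than 8-fold from at most 3.19 and 1.40 CPM. Lsr shares 43.6% of its exon bases with a gene on the opposite strand, and whether the counts used strand is not given in the sources used here. All 12 calls held in each leave-one-out fit (Stard10, Adgrg2, Nt5e, Lsr, Rhou, Amigo2, Meis2, Rbms2, Osbpl1a, Pgr, Shisal1 and Sp5).

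Other large falls were of genes of several tissues. Ptgds, a synthase of prostaglandin D2, was at 1.74, 0.785 and 0.859 CPM on chow and at 0.192, 0.0480 and 0.0499 CPM on high-fat diet (-3.46, SE 0.81, adjusted p = 0.0229). Slc4a1, the anion exchanger of red cells (-2.83, SE 0.61, adjusted p = 0.0172), Ankrd1, a cardiac and muscle ankyrin repeat protein (-3.05, SE 0.62, adjusted p = 0.0128), Mmd2 (-3.22, SE 0.81, adjusted p = 0.0301) and Klk10, a secreted protease (-2.83, SE 0.62, adjusted p = 0.0183), fell as well. The red cell markers, 7 genes of which Slc4a1 alone passed, summed to 666 to 1217 CPM on chow and to 435 to 772 CPM on high-fat diet, and the part of blood was not tested. Among abundant genes, the ribosomal protein genes Rpl7 (-0.51) and Rplp1 (-0.53) fell and Mmd, a membrane protein of monocytes and macrophages, rose (0.85). Ribosomal protein genes have many pseudogenes, so their counts are less certain. Ptgds (C1, H2 or H3, adjusted p up to 0.0892), Klk10 (C1, H2 or H3, adjusted p up to 0.0707) and Slc4a1 (C2 or H3, adjusted p up to 0.0665) lost their calls without the libraries named. Ankrd1 (C1 or H3, adjusted p up to 0.0568), Mmd (C1 or H3, adjusted p up to 0.0604) and Mmd2 (C1, C3, H2, H3 or the muscle-rich pair, adjusted p up to 0.114) did not pass without these libraries. Rpl7 (each library in turn, the epithelium-rich pair or the muscle-rich pair, adjusted p up to 0.149) and Rplp1 (C1, H1, H2, H3, the epithelium-rich pair or the muscle-rich pair, adjusted p up to 0.146) were not called once these were left out.

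Some of the largest falls were of genes highest in control replicate 2. Spint1 (-4.62, SE 1.30, adjusted p = 0.0458), Krt7 (-3.09, SE 0.76, adjusted p = 0.0285) and Krt18 (-3.07, SE 0.81, adjusted p = 0.0360), genes of epithelia, lay at 17.0, 156 and 102 CPM in control replicate 2 and at 0.794, 18.8 and 10.3 CPM in control replicate 1. Ckmt1, Pak6, Krt23 and Tspan8 were also highest in control replicate 2. Without the epithelium-rich pair the log2 fold change was -1.14 for Krt18, which kept its call (adjusted p = 0.0356), -1.27 for Krt7, -1.56 for Spint1, -1.93 for Ckmt1, -2.34 for Krt23, -1.50 for Pak6 and -1.43 for Tspan8. Spint1 (C2, H1, H2, H3 or the epithelium-rich pair, adjusted p up to 0.333), Krt7 (C2, H1, H2, H3 or the epithelium-rich pair, adjusted p up to 0.107) and Ckmt1 (C2, H1, H2, H3 or the epithelium-rich pair, adjusted p up to 0.0839) lost their calls without the libraries named. Pak6 (C2, H1, H2, H3 or the epithelium-rich pair, adjusted p up to 0.209), Krt23 (C2, H1, H2, H3 or the epithelium-rich pair, adjusted p up to 0.1003) and Tspan8 (C2, H1, H2, H3 or the epithelium-rich pair, adjusted p up to 0.171) did not pass without these libraries. Krt18 (C2, H1, H2 or H3, adjusted p up to 0.143) lost its call without the libraries named. The epithelial markers summed to 415 CPM in control replicate 2, 23.9 and 25.2 CPM in the other control libraries and 8.67 to 15.4 CPM in the high-fat libraries.

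Genes of the mesothelium, the cell layer that covers visceral fat, were lower on high-fat diet. All 14 markers had a negative log2 fold change, 9 fell and none rose, and the median was -1.21. Upk3b, a uroplakin of mesothelial cells, was at 265, 206 and 289 CPM on chow and at 93.6, 129 and 36.5 CPM on high-fat diet (-1.55, SE 0.34, adjusted p = 0.0187), and the transcription factor Wt1 at 43.7, 35.8 and 41.8 and 19.5, 25.5 and 11.2 CPM (-1.11, SE 0.22, adjusted p = 0.0116). The summed level of the 14 markers was 1630 to 2422 CPM in the control libraries and 698 to 1246 CPM in the high-fat libraries, lowest in high-fat replicate 3. The keratins Krt8, Krt18 and Krt19 are shared with the epithelium that control replicate 2 held. Msln, the gene of mesothelin, did not pass (-0.58, SE 0.32, adjusted p = 0.278). Between 3 and 8 markers were lowered in the leave-one-out fits, 6 without the epithelium-rich pair and 5 without the muscle-rich pair. Upk3b (C1 or the muscle-rich pair, adjusted p up to 0.0572) and Krt8 (C2, H1, H2, H3 or the epithelium-rich pair, adjusted p up to 0.166) lost their calls without the libraries named.

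**Figure D3:**
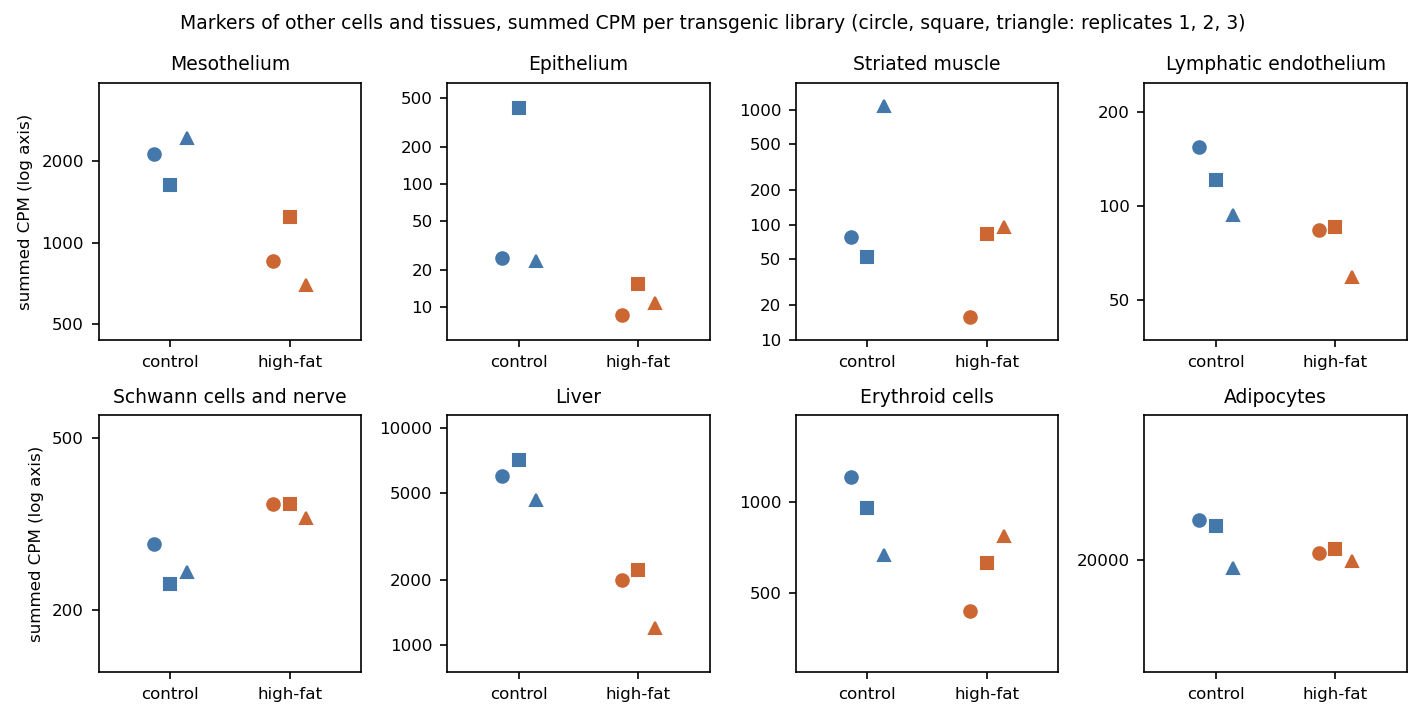
Summed level of the markers of 8 cell types or tissues in CPM (log axis) in each transgenic library; circles, squares and triangles are replicates 1, 2 and 3. Epithelial markers reach 415 CPM in control replicate 2 alone, muscle markers reach 1068 CPM in control replicate 3 alone, and mesothelial markers are lower in all 3 high-fat libraries.

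Stress genes gave scattered calls, beside 8.73% of all genes tested. Of 17 antioxidant genes 3 rose and 3 fell. Sod3, the extracellular superoxide dismutase, rose from 429, 525 and 567 to 909, 963 and 1138 CPM (0.98, SE 0.14, adjusted p = 0.00285), and Hmox1, which breaks down haem, from 25.3, 35.0 and 37.9 to 103, 52.9 and 58.5 CPM (1.13, SE 0.25, adjusted p = 0.0192), whereas Gpx3 fell. Of 18 genes of the unfolded protein response 2 fell, Xbp1, its transcription factor (-0.70, SE 0.15, adjusted p = 0.0182), and Pdia4 (-0.53, SE 0.12, adjusted p = 0.0183). Alox5ap, which feeds leukotriene synthesis, rose from 15.5, 14.5 and 18.6 to 33.3, 25.7 and 27.4 CPM (0.83, SE 0.13, adjusted p = 0.00441), and 3 of the 15 eicosanoid genes fell, among them Alox15, a lipoxygenase (-1.29, SE 0.36, adjusted p = 0.0443). None of 12 immediate-early genes and 1 of 15 clock genes, Cry1 (0.71), passed. Hmox1 (C1, H1 or the epithelium-rich pair, adjusted p up to 0.0763), Xbp1 (C1, H1 or H3, adjusted p up to 0.0734) and Pdia4 (C1, C2, H3 or the epithelium-rich pair, adjusted p up to 0.0623) lost their calls without the libraries named. Alox15 (each library in turn or the muscle-rich pair, adjusted p up to 0.156) and Cry1 (C1, C2, H1, H2, H3, the epithelium-rich pair or the muscle-rich pair, adjusted p up to 0.126) did not pass without these libraries.

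Other gene lists had at most 3 calls each, beside 8.73% of all genes tested. Of 14 adipogenic transcription factors Zfp423 rose (0.63) and Klf5 fell (-2.18). Of 16 hypoxia and VEGF genes the placental growth factor Pgf rose (1.39) and the oxygen sensor Egln3 fell (-1.06), and Vegfa did not pass (0.22, SE 0.16, adjusted p = 0.413). Of 18 lysosomal genes the enzymes Gusb (0.47, SE 0.09, adjusted p = 0.0107) and Ctsl (0.80) rose. Among 11 endothelial markers the tight junction gene Cldn5 (0.69) and Gpihbp1 rose and Vwf, von Willebrand factor, fell (-0.58). Of 13 progenitor and fibroblast markers Fap, a surface protease of activated fibroblasts, rose from 7.54, 6.91 and 7.23 to 13.8, 12.7 and 14.2 CPM (0.91, SE 0.18, adjusted p = 0.0110), without overlap. None of 10 smooth muscle and 7 lymphatic markers passed. Zfp423 (C1, C2, H1, H2 or H3, adjusted p up to 0.143), Klf5 (C2, H1, H2, H3 or the epithelium-rich pair, adjusted p up to 0.0928) and Pgf (C1, C2, H2, H3 or the epithelium-rich pair, adjusted p up to 0.176) lost their calls without the libraries named. Egln3 (C1, C2, H1, H2, H3 or the epithelium-rich pair, adjusted p up to 0.138), Ctsl (C1, C3, H1, H2, H3 or the muscle-rich pair, adjusted p up to 0.127) and Cldn5 (C1, C2, H2, H3, the epithelium-rich pair or the muscle-rich pair, adjusted p up to 0.0945) did not pass without these libraries. Vwf (C2, H1, H3 or the epithelium-rich pair, adjusted p up to 0.0925) lost its call without the libraries named.

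The wild-type libraries allow a test of whether the diet effect differed with the transgene. In wild-type fat 188 genes (1.14%) were called, 113 raised (0.683%) and 75 lowered (0.453%). Of these, 138 were called in the same direction in transgenic fat, 73.4% of the wild-type calls and 9.55% of the transgenic calls. The interaction, the diet effect in transgenic fat minus that in wild-type fat, had 0 of 16550 genes called (0%) by edgeR's quasi-likelihood test, with 929 at an unadjusted p under 0.05. DESeq2 on the same 12 libraries called 26 of 13918 (0.187%), and limma-voom called 0. The larger number of calls in transgenic fat is therefore not shown to be a different response, gene by gene.

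Fgf13 had an interaction of 1.22 (SE 0.21, unadjusted p = 7.90e-05, adjusted p = 0.557), with a wild-type log2 fold change of 0.92 (SE 0.15) that passed the diet test there too. S100b changed by 0.07 (SE 0.29) in wild type (interaction 2.24, SE 0.42, unadjusted p = 0.000145), and Wnt4 by 0.04 (SE 0.35; interaction -2.37, SE 0.49, unadjusted p = 0.000404). The wild-type values of S100b and Wnt4 were within their errors of 0, and none of the 3 interactions passed after adjustment. H2-DMa (wild type 0.64, interaction 0.92, SE 0.18, adjusted p = 0.557), Olfm1 (wild type 0.84, interaction 0.88, SE 0.19, adjusted p = 0.591) and Ret (wild type 0.92, interaction 1.02, SE 0.23, adjusted p = 0.618) passed the diet test in both genotypes. Npr3 (wild type 0.54, interaction 0.79, SE 0.18, adjusted p = 0.618), Slc5a7 (wild type 1.004, interaction 2.90, SE 0.88, adjusted p = 0.750) and Lep (wild type 0.53, interaction 1.12, SE 0.38, adjusted p = 0.781) had the same sign in wild-type fat without passing there. Ccl2 (wild type 2.05, interaction 0.80, SE 0.42, adjusted p = 0.864), Col6a2 (wild type 1.39, interaction 0.47, SE 0.29, adjusted p = 0.885), Stard10 (wild type -1.38, interaction -0.17, SE 0.23, adjusted p = 0.957) and Tgfb1 (wild type 0.52, interaction -0.07, SE 0.12, adjusted p = 0.972) had the same sign and passed the diet test in both genotypes, with Stard10 and Tgfb1 nearly equal. By DESeq2 the interaction of Fgf13, S100b and Npr3 was among the 26 calls. Mean levels on chow were lower in transgenic than in wild-type fat for several of these genes. They were 21.7 against 47.3 CPM for Fgf13, 581 against 1108 CPM for Npr3 and 745 against 1597 CPM for Lep. On high-fat diet the same means were 95.5 against 89.6, 1457 against 1611 and 2325 against 2302 CPM. Stard10 stood at 47.3 against 44.3 CPM on chow and at 16.2 against 17.0 CPM on high-fat diet. Levels were not tested between genotypes.

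**Figure D4:**
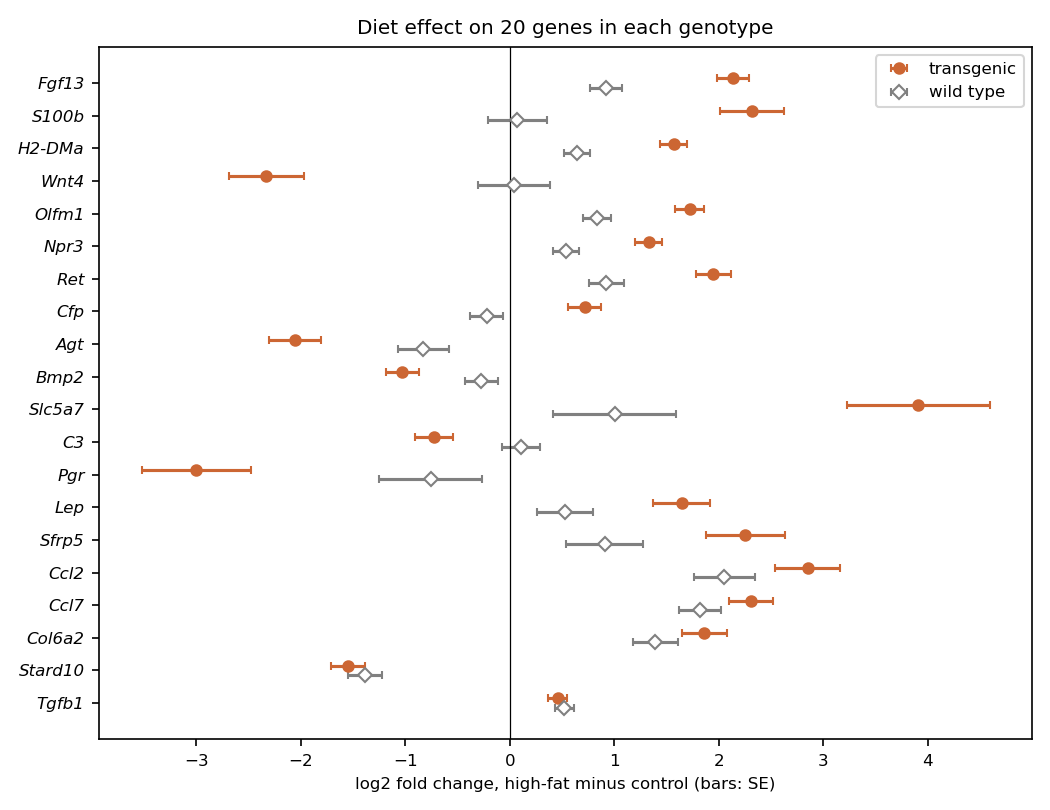
Log2 fold change (high-fat minus control) of 20 genes in transgenic (filled circles) and wild-type fat (open diamonds), with standard errors. S100b and Wnt4 lie at 2.32 and -2.33 in transgenic fat and near 0 in wild-type fat, whereas Stard10 and Tgfb1 lie close together.

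The authors' deposited table for this comparison holds 1605 genes with an adjusted p below 0.05, 964 higher and 641 lower on high-fat diet. Of the genes called here, 1193 are also called in the authors' deposited table.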

How the data were processed

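RNA from visceral white fat was sequenced by DNBseq after extraction with a Zymo kit, per the labels' protocols. The deposited count files hold whole-number read counts per gene for each library. Per the submitters' processing notes the authors' tools include HISAT2 2.2.0, HTSeq 2.0 and DESeq2 1.32.0 with mm10, with no source used here giving the annotation or strand setting. Rows that name no gene held 16.8 to 21.0% of the reads of a library and were removed. The authors' deposited table of this comparison gives a mean signal per gene over libraries, log2 fold changes with a test score, p-values and adjusted p-values, and was used only for counts of calls.

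All 12 libraries were fitted with edgeR 4.0.16 (quasi-likelihood F test, TMM factors, genes kept by filterByExpr at 10 counts and 15 in total), with 1 mean per group and Benjamini-Hochberg adjustment over 16550 of 50559 genes. Called genes had an adjusted p under 0.05. Levels are CPM, counts per 1000000 with TMM factors. The principal components and the correlations of same-numbered libraries use log2 CPM with a prior count of 2. Fold changes use edgeR's default prior count, and standard errors were derived from the F statistic. Depth was 20.1 to 21.3 M counts per library, and ratios of low counts carry exact 95% intervals for counting error only. Genes were named by size, p-value and level among called genes without overlap, and from 44 gene lists and 23 marker lists, and some list members are not reported here. Members, lists and rules were chosen with earlier results of these data known. DESeq2 1.42.0, limma 3.58.1 (voom), DESeq2 size factors, no count filter, the 6 transgenic libraries alone, a replicate block and omitted libraries were the alternatives. The fits were tested on simulated data in R 4.3.3. Promoter sequences are RefSeq's for GRCm38.p6, and gene positions are from the GRCm38 annotation.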

Additional observations from a re-analysis of the deposited data

How the results depend on the processing

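The count of 1445 genes called for diet was 2209 by DESeq2 on 12 libraries, 658 by edgeR on the 6 transgenic libraries, 881 without both epithelium-rich libraries and 543 to 1455 when 1 transgenic library was left out. With control replicate 1 as the lone control, an alternative chosen after seeing the data that assumes this library to vary like the other groups, 285 genes were called. The raised share of calls was 61.7%, and 75.1% without high-fat replicate 3. DESeq2 size factors gave 1441 calls, of which 1439 were shared. The interaction had 0 calls by edgeR, 26 by DESeq2, 53 without a count filter, 1 without both epithelium-rich libraries, and 0 to 10 when 1 of the 12 libraries was left out (10 without wild-type control replicate 3). The causes were not tested. With the replicate number as a block 1087 genes were called for diet, 1049 of them shared, and 0 for the interaction. Deviations of same-numbered libraries correlated at 0.12, -0.09 and 0.17, so the numbers were not taken as pairs. Of 175 called genes with a fold change in the text, 173 of 173 with a value were also called by DESeq2 on 12 libraries, 150 by limma-voom and 115 in the 6 libraries alone.

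The sign changed for 9 values named in the text, none called in the reported fit, and the values are log2 fold changes. H2-Eb1 was 0.36 by limma-voom, 1.37 without the muscle-rich pair, 1.46 with the lone control and -2.06 to 1.37 when 1 library was left out. Cd36 was -0.0065 by limma-voom, -0.0121 with the lone control, -0.0747 without the muscle-rich pair and -0.0747 to 0.103 when 1 library was left out. Leaving out 1 library gave -0.121 to 0.0535 for Pcna, -0.150 to 0.0753 for Smad7 and -0.43 to 2.71 for Ucp1. Smad7 was 0.0753 without the epithelium-rich pair. The lone control gave 0.0425 for Smad7, -0.189 for Ccn2 and 0.0647 for Tgfbr2. The interaction ranged from -0.300 to 0.0176 for Stard10 and from -0.131 to 0.0042 for Tgfb1 when 1 library was left out.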
